A study of Mus musculus with 60 samples.

Results

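The mitochondrially encoded genes are the 37 genes of the mouse mitochondrial genome (MT, 16299 bases), taken as every row of the 2 deposited count tables that is annotated to MT, out of 56980 genes per table. They comprise 13 protein-coding genes, 2 rRNA genes and 22 tRNA genes, of which 28 lie on the plus strand and 9 on the minus strand of GRCm39. Of these, 21 had enough counts to be tested in each table: 12 protein-coding genes, both rRNAs and 7 tRNAs (mt-Tl1, mt-Tw, mt-Tn, mt-Tc, mt-Ty, mt-Te and mt-Tp). Across the 60 libraries the 37 genes received 13094687 counts, and their share of a library ranged from 0.257% to 2.32% with a median of 1.10%.

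The mitochondrial genome is a small circular molecule present in many copies per cell. Both strands are transcribed into long precursors, which are cut mainly at the tRNAs that sit between the other genes. Its protein-coding genes supply core subunits of respiratory complexes I (mt-Nd genes), III (mt-Cytb) and IV (mt-Co genes) and of the ATP synthase (mt-Atp genes), its rRNAs build the mitochondrial ribosome, and all other parts of these complexes come from nuclear genes. Most mitochondrial mRNAs carry a poly(A) tail, the rRNAs carry short tails, and mature tRNAs carry none, so libraries made from poly(A) RNA capture the classes unequally.

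RNA from mouse fibroblasts, grown at 3% oxygen, was sequenced in 20 groups of 3 libraries. The first table (36 libraries) followed tail tip fibroblasts in which doxycycline (2 µg/ml) switches on the reprogramming factors Oct4, Klf4, Sox2 and c-Myc from a single transgene at the Col1a1 locus. They came from Ercc1 d/- animals (D/KO; male, 8 weeks), which carry a truncated and a null allele of a DNA repair gene, or from animals with the same factors, intact Ercc1 and an Oct4-GFP reporter (WT; female, 22 weeks). They were sampled on days 0, 2 and 4, with or without VC, which is ascorbic acid (50 µg/ml) plus CHIR-99021 (3 µM), a GSK3 inhibitor. No later day was sampled without doxycycline, so days in culture, doxycycline and the factors cannot be told apart. The second table (24 libraries) held tail tip fibroblasts of Ercc1 d/- animals whose labels name no such transgene (female, 4 weeks), untreated or given for 3 days Repsox, Vactosertib or A83-01, which inhibit the TGF-beta receptor ALK5, or DMH-1, a BMP receptor inhibitor, at doses that the labels do not give. It also held untreated Ercc1 +/+ tail tip and skin fibroblasts (female, 14 weeks) and tail tip fibroblasts of the WT 4F Oct4-GFP line (female, 22 weeks) labelled TGFB. Between D/KO and WT, genotype, sex, age and line changed together in the first table, and genotype and age between the control D/KO and Ercc1 +/+ cells of the second, so their parts in a difference cannot be told apart. The labels do not say whether the 3 libraries of a group came from separate cultures or animals, so the p-values measure the spread between these libraries.

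Library totals were 16538374 to 18484951 counts in the first table and 17102639 to 30599138 in the second. Ercc1 stood at 8.03 to 18.6 CPM (a gene's counts relative to the library total) in D/KO and 16.8 to 29.1 in WT libraries of the first table, but at 20.3 to 20.9 in control D/KO and 13.3 to 21.7 in WT tail tip libraries of the second, where it was not lower. RNA of the truncated allele may be counted too, which was not tested, so the gene's count checks the labels only in part. In the WT 4F libraries labelled TGFB, Ercc1 stood at 42.3 to 47.7 CPM, above every other library. Summed endothelial markers (Pecam1, Cdh5, Kdr, Tie1) lay between 137 and 691 CPM in the D/KO libraries of the first table against 0.165 to 1.54 in its WT libraries, and their part in the D/KO to WT differences was not tested. Several libraries stood apart from their replicates in nuclear or mitochondrial composition. WT skin replicate 1 and Repsox replicate 2 deviated over nuclear genes by 0.966 and 0.718 (root mean square log2 deviation; table median 0.446). The mt-Nd4 part of the mitochondrial counts was 2.34% in D/KO day 0 replicate 1 and 6.32% in replicate 2 of that group, and was also low in WT skin replicate 1 (2.71%), DMH-1 replicate 1 (2.05%), D/KO day 0 plus VC replicate 3 (4.47%) and WT day 2 replicate 3 (4.06%).

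The genes are packed so tightly that neighbours share bases, which limits how reads can be assigned. The ATP synthase genes mt-Atp8 and mt-Atp6 share 43 bases (capitals; MT:7907-7989, plus strand, GRCm39), the complex I genes mt-Nd4l and mt-Nd4 share 7 (MT:10147-10193), and mt-Nd5 shares 14 with mt-Nd6, which runs on the opposite strand (MT:13532-13585).
mt-Atp8/mt-Atp6: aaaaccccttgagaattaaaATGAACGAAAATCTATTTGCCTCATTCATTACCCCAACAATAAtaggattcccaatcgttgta
mt-Nd4l/mt-Nd4: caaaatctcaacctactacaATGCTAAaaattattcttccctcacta
mt-Nd5/mt-Nd6: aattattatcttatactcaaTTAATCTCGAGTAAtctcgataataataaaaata
The strand setting of the counting is not given in the sources used here. Reads of mt-Nd6, the sole protein-coding gene on the minus strand, can therefore not be told apart from RNA of the opposite strand at its position.

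A stretch of chromosome 1 (1:24650616-24655269, minus strand) is a near-perfect copy of MT:6390-11042 at 99.936% identity, and parts of it are shown because a read from within it has nearly the same sequence at both places. It differs from the mitochondrial sequence at 3 places, shown with the differing base in capitals. Substitutions are written with the mitochondrial base first, the MT position and the chromosome 1 base. A6393T and T9461C are substitutions, and the chromosome 1 copy holds 1 extra A at MT position 9829.
MT around 6393: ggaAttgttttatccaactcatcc
chromosome 1 copy: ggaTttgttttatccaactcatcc
MT around 9461: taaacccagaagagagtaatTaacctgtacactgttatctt
chromosome 1 copy: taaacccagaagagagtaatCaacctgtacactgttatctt
MT around 9829: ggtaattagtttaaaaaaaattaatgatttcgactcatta
chromosome 1 copy: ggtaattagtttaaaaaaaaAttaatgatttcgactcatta
Of all windows of 150 bases, the read length, 100% had an exact nuclear copy in mt-Co2, mt-Atp8, mt-Atp6, mt-Co3 and mt-Nd4l, 98.5% in mt-Nd3, 59.2% in mt-Nd4 and 23.6% in mt-Co1, and 0 in the other 5 protein-coding genes and both rRNAs. The first 90 bases of mt-Co2 (MT:7013-7102) show such a stretch, which reads the same on chromosome 1.
mt-Co2 start: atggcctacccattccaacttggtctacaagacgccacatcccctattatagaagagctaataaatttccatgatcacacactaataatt

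Per length of gene the levels of the members differed widely. mt-Co1, the catalytic subunit of complex IV, was the highest in all 60 libraries, with a median of 2600 CPM per kilobase. mt-Cytb (1538), the complex III subunit, and mt-Nd1 (1297) followed, and then the complex I subunits mt-Nd6 (765), mt-Nd2 (614), mt-Nd4 (576) and mt-Nd5 (563). mt-Cytb was above mt-Nd1 in 34 of the 36 libraries of the first table, the other 2 being of D/KO day 0, and in 6 of the 24 of the second. In the second table it was above in all 3 A83-01 libraries, 2 of 3 with Repsox and 1 of 3 with Vactosertib, and in no other. mt-Nd6 was above mt-Nd2 in 54 of 60 libraries and mt-Nd2 above mt-Nd4 in 58, whereas the place of mt-Nd5 beside these 2 changed between replicates in most groups. The rRNAs mt-Rnr1 (240) and mt-Rnr2 (231) had overlapping ranges. Below them stood the 6 genes copied on chromosome 1, mt-Co2 at 25.4, mt-Co3 at 15.4, mt-Atp6 at 12.2, mt-Nd4l at 3.18, mt-Nd3 at 2.57 and mt-Atp8 at 0.202 CPM per kilobase. Together these 6 held 0.419% of the mitochondrial counts although mt-Co2, mt-Co3 and mt-Atp6 encode core subunits. The whole count of mt-Nd4 divided by its windows without an exact nuclear copy, which takes no read to have come from its other windows, was 1853 per window over all libraries. By the same measure mt-Co1, the other partly copied gene, had 4517, mt-Cytb 2249, mt-Nd1 1909, mt-Nd6 1341, mt-Nd2 933 and mt-Nd5 748.

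**Figure D1:**
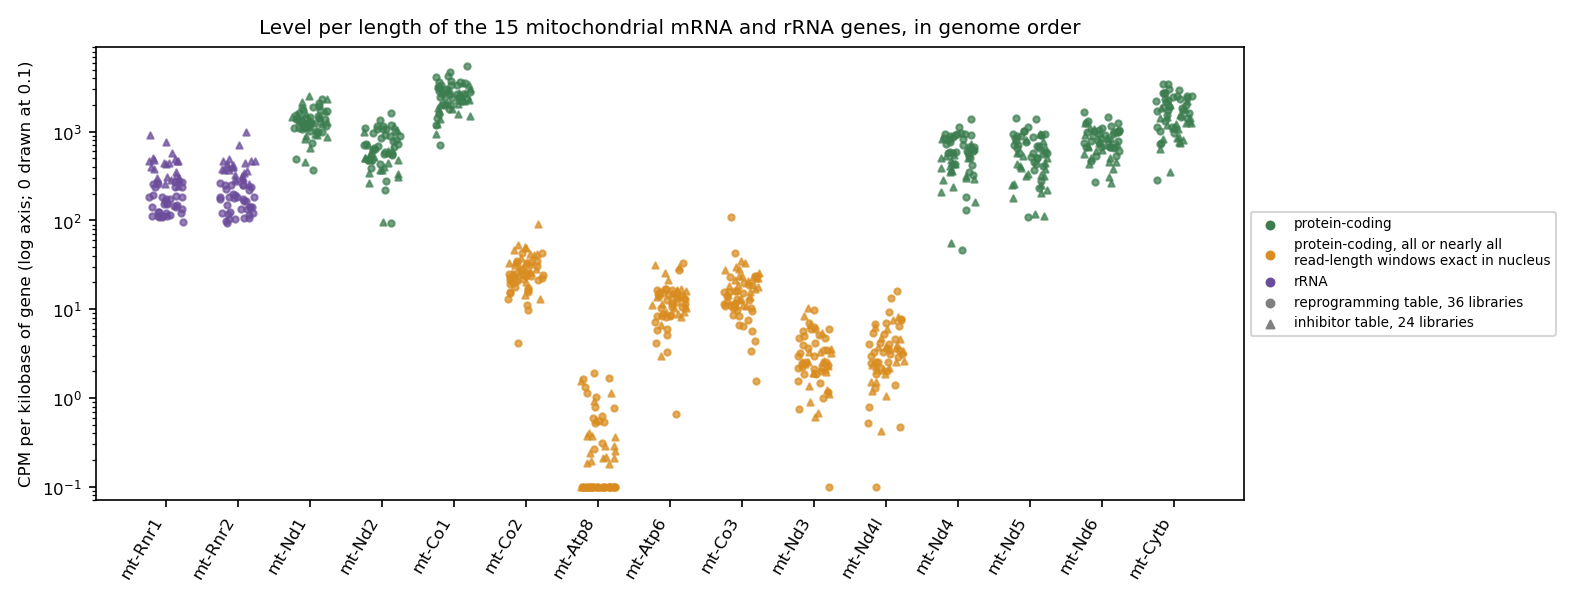
Level of the 15 mitochondrial mRNA and rRNA genes in genome order, in CPM per kilobase of gene on a log axis, 1 point per library (circles, first table; triangles, second table; values of 0 drawn at 0.1). Genes with an exact nuclear copy of all or nearly all windows of 150 bases (orange) had medians from 0.202 to 25.4, below the other protein-coding genes (green, medians from 563 to 2600) and the rRNAs (purple, medians of 240 and 231).

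The copies on chromosome 1 themselves drew counts, and these are reported as uncertain because a read within an exact copy fits both places. Over the 60 libraries the mt-Co3 copy Gm28437 had 29263 counts against 17241 for mt-Co3, and the mt-Nd3 copy Gm28438 had 2853 against 1364 for mt-Nd3. Atp6-ps had 10175 against 10862 for mt-Atp6, Gm28661 had 14587 against 23934 for mt-Co2, and Gm10222 had 621 against 1366 for mt-Nd4l. The copies of mt-Nd4 and mt-Co1 held only 0.298% and 0.143% of the counts of the pair. Within a group the split between the places could move from library to library. In D/KO cells on day 2 plus VC, mt-Co3 had 1471, 263 and 260 counts and Gm28437 had 130, 1350 and 219, so the sums of both were 1601, 1613 and 479. The library with the highest mt-Co3 count was thus not the library with the highest count on its copy.

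tRNA genes received 0.425% of the mitochondrial counts, 55592 in all, and the 3 genes mt-Tp, mt-Tc and mt-Tn (for proline, cysteine and asparagine) held 91.5% of these. The 8 tRNA genes on the minus strand held 96.1%. The 3 leading genes are shown in full, on the minus strand at MT:15356-15422, MT:5192-5257 and MT:5089-5159.
mt-Tp: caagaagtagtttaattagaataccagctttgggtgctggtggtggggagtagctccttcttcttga
mt-Tc: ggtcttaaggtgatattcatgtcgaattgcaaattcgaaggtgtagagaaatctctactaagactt
mt-Tn: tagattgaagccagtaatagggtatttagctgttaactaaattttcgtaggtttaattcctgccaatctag
mt-Tf, mt-Td and mt-Tk had 0 counts in all 60 libraries. A further copy on chromosome 2 (3260 bases, 97.362% identity) spans several tRNA genes. Of those tested, mt-Tw, mt-Tn and mt-Ty had 0 differing bases in their best nuclear copy and mt-Tc had 1. Mature tRNAs are shorter than a read and lack a tail, so these counts are a measure of reads that overlap the genes and not of tRNA levels.

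The mitochondrial share of total counts was higher than on day 0 by day 2 of doxycycline in D/KO and by day 4 in WT cells. In D/KO cells without VC it was 0.257%, 0.722% and 0.656% on day 0, 1.258%, 1.140% and 0.987% on day 2, and 1.384%, 1.418% and 1.100% on day 4. Every D/KO library of day 2 or day 4 lay above every D/KO library of day 0 without VC. With VC the D/KO shares were 0.863%, 1.046% and 0.469% on day 0, 1.499%, 1.618% and 1.517% on day 2, and 2.196%, 1.822% and 1.341% on day 4, again without overlap between day 0 and the later days. Over both VC conditions the D/KO mean went from 0.669% on day 0 to 1.34% on day 2 and 1.54% on day 4 (6 against 6 libraries; both p = 0.005, two-sided exact permutation within VC condition, the smallest possible p; adjusted p = 0.0175 over 14 share comparisons). In bulk RNA, fewer cells of a type and less RNA per cell cannot be told apart, and a share rises both when mitochondrial RNA rises and when other RNA falls.

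In WT cells the share stood at 0.900%, 0.888% and 1.051% on day 0, 1.142%, 0.988% and 0.479% on day 2, and 1.577%, 1.476% and 1.469% on day 4. With VC it was 0.989%, 0.919% and 0.968%, then 0.940%, 1.035% and 1.579%, then 2.315%, 1.651% and 1.610%. Day 4 lay above day 0 in every library of both conditions, whereas day 2 overlapped day 0. The mean over both conditions was 0.952% on day 0, 1.03% on day 2 (exact permutation p = 0.55, adjusted p = 0.642) and 1.68% on day 4 (exact permutation p = 0.005, adjusted p = 0.0175). The day 2 difference of 0.0747 percentage points was 0.172 without WT day 2 replicate 3 and -0.0239 without WT day 2 plus VC replicate 3. The D/KO share was 0.991% without and 1.37% with VC over the 3 days (9 against 9 libraries, exact permutation within days, p = 0.005, adjusted p = 0.0175). The WT means with and without VC were 1.33% and 1.11% (exact permutation p = 0.0838, adjusted p = 0.14). Over all days and conditions D/KO and WT had mean shares of 1.18% and 1.22% (18 against 18 libraries, permutation p = 0.683). Their difference was -0.0378 percentage points, and it ranged from -0.0719 to 0.000217 when 1 library was left out. D/KO had the higher mean in 2 of the 6 pairs of groups of the same day and VC condition. D/KO and WT did not overlap in 2 pairs, both without VC and both with D/KO lower. These were day 0 (means 0.545% and 0.946%) and day 4 (1.30% and 1.51%).

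**Figure D2:**
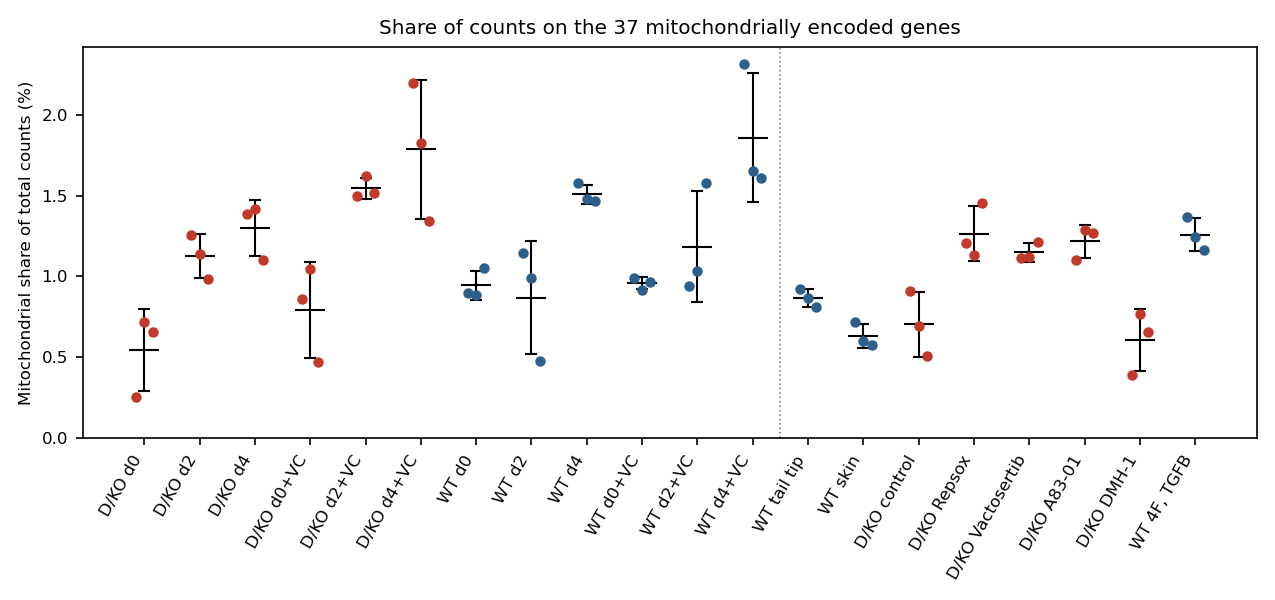
Share of all counts that fell on the 37 mitochondrially encoded genes, in percent, for each of the 60 libraries (points; red, D/KO; blue, WT), with the group mean and SD as bars and the dotted line between the 2 tables. D/KO day 0 had the lowest group mean (0.545%) and WT day 4 plus VC the highest (1.86%).

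The protein-coding members carried this rise in D/KO cells. mt-Cytb had 326, 1159 and 1099 CPM on day 0 (scaled by trimmed mean of M values, TMM), 2669, 2468 and 2130 on day 2, and 2769, 2854 and 2169 on day 4. The day 0 libraries lay below all others, with replicate 1 far below its replicates. The log2 change of mt-Cytb was 1.49 ± 0.31 (SE) on day 2 (edgeR quasi-likelihood test, adjusted p = 0.000325) and 1.59 ± 0.31 on day 4 (adjusted p = 8.82e-05), and it stayed between 1.10 and 1.77 on day 2 and between 1.20 and 1.87 on day 4 when any 1 library was left out. mt-Nd6 went from 142, 277 and 241 CPM on day 0 to 462, 529 and 413 on day 4, without overlap, a log2 change of 1.09 ± 0.21 (adjusted p = 4.97e-05). mt-Co1 went from 1101, 2755 and 2438 to 4730, 4762 and 3384 CPM, a log2 change of 1.03 ± 0.27 (adjusted p = 0.00212).

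Of the 21 members tested, 9 were higher and 2 lower on day 2 in D/KO cells without VC, beside 14.3% of all genes called higher and 13.2% lower. The median log2 change of the 12 protein-coding members was 1.21, beside -0.00119 for all genes. On day 4, 11 were higher and 2 lower (all genes, 18.3% and 18.7%), with a protein-coding median of 1.46. The complex I genes mt-Nd2 (1.24 and 1.47 on days 2 and 4), mt-Nd4 (1.47 and 1.70) and mt-Nd5 (1.17 and 1.18) were called at both days, and mt-Nd1 was called on day 4 only (0.68, adjusted p = 0.0671, and 0.78, adjusted p = 0.025). mt-Co2 (1.28 and 1.44), mt-Atp6 (1.61 and 1.84) and mt-Nd4l (1.97 and 3.12), which share their reads with chromosome 1, were called too. With the counts of the copies added, mt-Co2 and mt-Atp6 kept their calls at both days, and mt-Nd4l lost its call on day 2 (1.08, adjusted p = 0.153) and stood at 2.07 on day 4. mt-Co3 was called on day 4 only (1.54), but with its copy's counts added on day 2 only (3.07, adjusted p = 0.000479, in place of 0.92) and not on day 4 (adjusted p = 0.0757). mt-Nd4l had 0, 4 and 7 counts on day 0 and 23, 14 and 73 on day 4. Without D/KO day 0 replicate 1, 6 members were called on day 2 in place of 11, and 11 on day 4 in place of 13. The calls lost included mt-Nd2 (0.82) and mt-Nd5 (0.76) on day 2 and mt-Nd1 (0.45) on day 4. The mt-Nd1 call was lost without any of 3 of the 6 libraries, and with only the groups compared (adjusted p = 0.0567). Summed keratinocyte markers went from 0.118 to 0.352 CPM on day 0 to 39.4 to 55.4 on day 4, endothelial markers from 635 to 691 to 245 to 293 CPM and fibroblast markers from 70284 to 110799 to 28541 to 30294 CPM, and their part in these changes was not tested.

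With VC as well, 9 members were higher and 1 lower in D/KO cells on day 2 (all genes, 23.8% and 23.6%), and 10 were higher and 1 lower on day 4 (27.9% and 26.2%). The protein-coding medians were 0.99 and 1.04. mt-Cytb had 1663, 2281 and 860 CPM on day 0 plus VC and 3968, 3436 and 2543 on day 4 plus VC, without overlap, a log2 change of 1.05 ± 0.31 (adjusted p = 0.00444). mt-Nd5, the complex I subunit, changed by 1.16 (adjusted p = 0.00361) and mt-Nd2 by 1.02 (adjusted p = 0.0131), while mt-Nd4 (0.88, adjusted p = 0.088) and mt-Nd1 (0.56, adjusted p = 0.0891) were not called. mt-Co3 was called at both days (2.63 and 1.40), and was called with its copy's counts added too (2.76 and 2.45). The day 2 value rested on replicate 1 of day 2 plus VC, with its 1471 counts against 263 and 260, and was 1.29 without it. These counts rested on D/KO day 0 plus VC replicate 3, without which 3 members were called on day 2 and 4 on day 4. On day 4 plus VC, 7 were called without replicate 1 of either group. Mean summed keratinocyte markers went from 1.28 CPM on day 0 plus VC to 114 on day 2 and 370 on day 4 plus VC, endothelial markers from 245 to 156 and then 581, and fibroblast markers from 212364 to 55424 and 24635. Their part in these changes was not tested.

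In WT cells 0 members were called higher on day 2, with or without VC, by edgeR with TMM scaling or by DESeq2 (5 and 4 of 21 members at an unadjusted p under 0.05 in either direction). On day 2 plus VC, 3 were higher without a filter on low counts or with the 2 groups alone in the fit, and 1 with total-count scaling or without replicate 1 or 3 of that group. Without VC, 2 were lower on day 2 (all genes, 6.26% higher and 4.3% lower), and 2 were higher and 2 lower on day 4 (11.7% and 12.8%). With VC, 2 were lower on day 2 (13.8% and 13.7%), and 5 were higher and 3 lower on day 4 (22.7% and 22%). The day 4 counts of both conditions were near or below the shares of all genes. mt-Cytb had 1277, 1276 and 1518 CPM on day 0 and 2846, 2675 and 2625 on day 4 in WT cells without VC, without overlap, a log2 change of 1.00 ± 0.31 (adjusted p = 0.0159). mt-Nd6 was the other gene called, at 0.61 ± 0.20 (adjusted p = 0.0252), and mt-Co1 (0.61, adjusted p = 0.0888), mt-Nd2 (0.89, adjusted p = 0.057) and mt-Nd5 (0.79, adjusted p = 0.0764) were not. With VC, mt-Nd6 (0.80), mt-Cytb (0.89), mt-Nd2 (1.03), mt-Nd5 (0.91) and mt-Nd4l (1.56) were called on day 4, the last a call lost when any of 4 of the 6 libraries was left out (lowest value 0.71). With the copies' counts added, mt-Co2 (0.58, adjusted p = 0.0467) and mt-Nd3 (1.59, adjusted p = 0.0173) were called on day 4 too. On day 4 plus VC, mt-Co2 (0.52, adjusted p = 0.0466) and mt-Atp6 (1.29 in place of 0.67, adjusted p = 0.0107) were then called too. The protein-coding medians in WT were 0.05 and 0.76 without VC and 0.16 and 0.74 with VC on days 2 and 4. The WT counts depended on the fit: on day 4, 15 members were called when the 2 groups alone entered it and 7 by DESeq2, against 4 with all groups, and 14 against 8 on day 4 plus VC with the 2 groups alone. The shares of all genes called in these other fits are not given here. The WT day 4 count fell to 1 without WT day 0 replicate 2, and the WT day 4 plus VC count fell to 4 without WT day 4 plus VC replicate 1. Summed fibroblast markers went from a mean of 155452 CPM on day 0 plus VC to 55435 on day 4 plus VC and keratinocyte markers from 1.08 to 11.1, and their part was not tested.

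**Figure D3:**
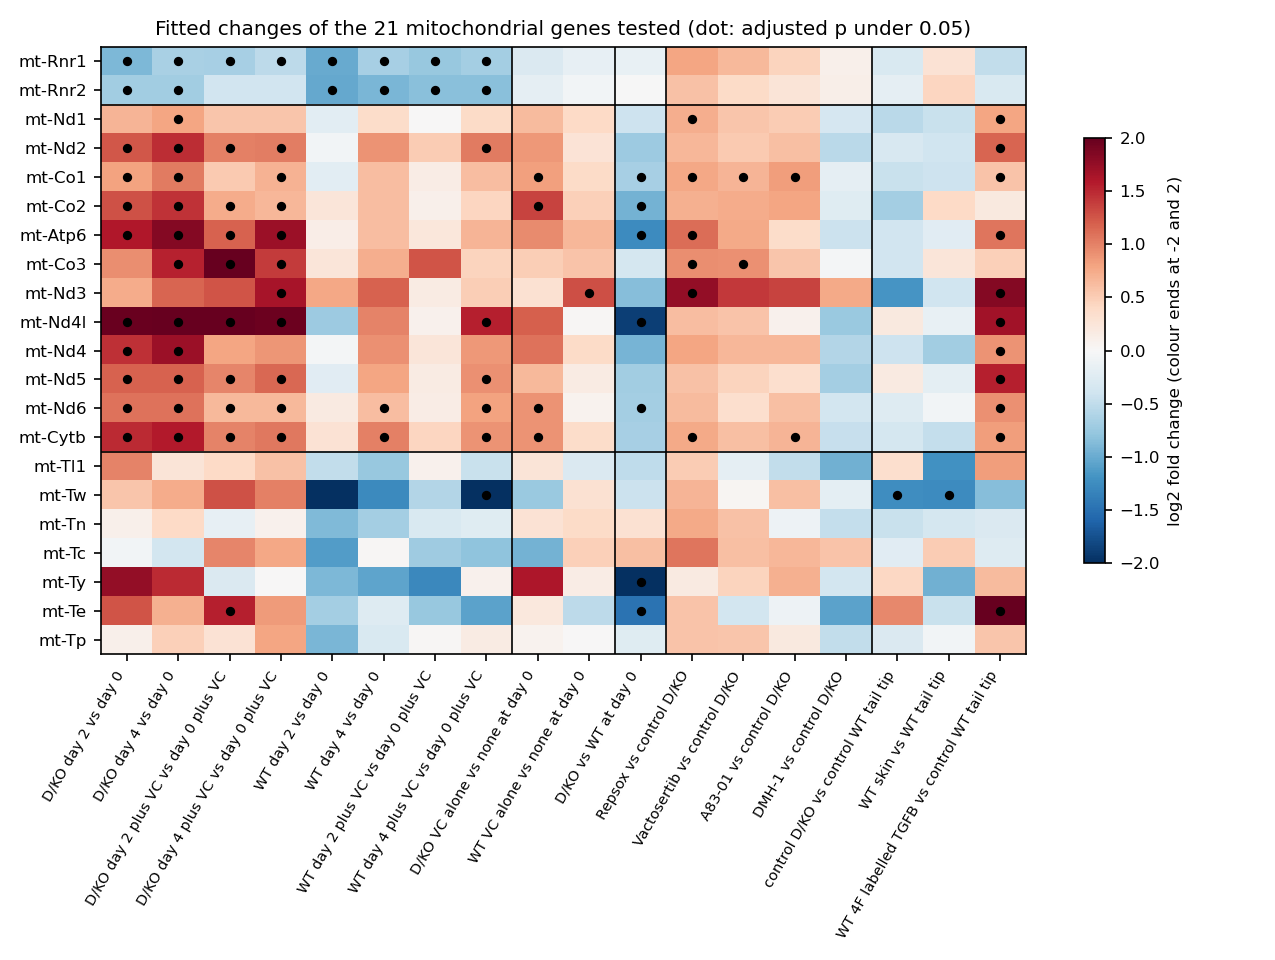
Log2 change of the 21 tested members against day 0 in the 8 arms of the first table and against the controls in the second table, with columns also for VC alone and for D/KO against WT on day 0, as a colour scale from -2 (blue) to 2 (red). Black dots mark an adjusted p under 0.05. In D/KO cells the protein-coding members lie above 0 with medians from 0.99 to 1.46, and mt-Rnr1 lies below 0 in all 8 arms.

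A larger change in D/KO than in WT cells was not shown for the protein-coding members. In the test of the difference itself, 0 of 21 members were called on day 2, 0 on day 4 and 0 on day 2 plus VC by edgeR (all genes, 3.43% higher and 3.11% lower, 7.27% and 7.04%, 6.85% and 7%), with 13, 4 and 3 at an unadjusted p under 0.05. DESeq2 called 2, 0 and 1. The difference was above 0 for 20, 19, 21 and 18 of the 21 members in these 3 contrasts and on day 4 plus VC, in that order. The changes share their day 0 libraries, and leaving out D/KO day 0 replicate 2 gave 7 calls on day 2. Testing without a filter on low counts, which lets further members into the test, gave 12, 9 and 10. The shares of all genes called in these other settings are not given here. On day 4 plus VC 1 member, mt-Tw, was called (all genes, 13.9% higher and 15.5% lower), against 5 without a filter, where mt-Tw was not called (adjusted p = 0.0558), and 2 by DESeq2. With the copies' counts added, mt-Co3 was called on day 2 (difference of 3.75, adjusted p = 0.00776) and on day 4 plus VC (2.69, adjusted p = 0.019).

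The rRNAs moved the other way. mt-Rnr1, of the small ribosomal subunit, had 226, 256 and 257 CPM in WT cells on day 0, 119, 156 and 90.6 on day 2, and 175, 138 and 152 on day 4, with day 0 above all later libraries. Its log2 change was -1.01 ± 0.20 on day 2 (adjusted p = 0.000622) and -0.67 ± 0.20 on day 4 (adjusted p = 0.0138). mt-Rnr2, of the large subunit, had 351, 373 and 393 CPM on day 0 and 222, 193 and 180 on day 4, a log2 change of -0.91 ± 0.21 (adjusted p = 0.0013). In D/KO cells mt-Rnr1 had 166, 258 and 245 CPM on day 0, 130, 119 and 108 on day 2, and 144, 174 and 107 on day 4, so that day 4 overlapped day 0. Its changes were -0.91 (adjusted p = 0.000728) and -0.65 (adjusted p = 0.00976).

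mt-Rnr1 was called lower in all 8 doxycycline arms and mt-Rnr2 in 6, the exceptions being D/KO with VC on day 2 (-0.39, adjusted p = 0.128) and day 4 (-0.38, adjusted p = 0.123). With 1 library left out, mt-Rnr1 lost its call in 5 of the arms: without any of 2 of the 6 libraries in D/KO and 3 in WT cells on day 4, and with VC 1 in D/KO cells on day 2, 3 on day 4 (lowest change -0.66, highest -0.32) and 1 in WT cells on day 4. mt-Rnr2 lost its call in D/KO cells on day 2 (2 of 6 libraries) and day 4 (1 of 6), and no direction turned. These calls also depend on the scaling where VC was added. With libraries scaled by total counts only, which moved the median of all genes by up to 0.377 (D/KO day 4 plus VC), mt-Rnr1 was not called in D/KO on day 2 plus VC (-0.40, adjusted p = 0.0862) or day 4 plus VC (-0.14, adjusted p = 0.547), nor in WT on day 4 plus VC (-0.41, adjusted p = 0.0778). Under that scaling 14 members were higher and 0 lower in D/KO cells at both days with VC, while in WT cells 1 was higher and 2 lower on day 2 plus VC and 10 were higher and 1 lower on day 4 plus VC.

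As a part of the mitochondrial counts, which no scaling between libraries touches, the rRNAs held 16.6%, 8.87% and 9.11% in D/KO cells on day 0 and 2.84%, 3.28% and 2.74% on day 4. In WT cells they held 6.88%, 7.61% and 6.67% on day 0 and 2.71%, 2.47% and 2.47% on day 4. With VC the part went from 4.76%, 4.60% and 7.77% to 2.19%, 2.28% and 2.36% in D/KO and from 5.34%, 4.90% and 5.58% to 2.05%, 1.79% and 1.88% in WT cells. On day 0, before doxycycline, every library with VC also lay below every library without VC of the same cells. Day 0 did not overlap day 4 in any of these 4 arms, nor day 2 (3.05% to 3.16% in D/KO and 2.89% to 5.33% in WT cells, 2.09% to 2.69% and 2.51% to 2.84% with VC). No test was made of this ratio, which was chosen after the values had been seen. It also falls when the mRNA counts rise. As a share of total counts the rRNAs had means of 0.0555% on day 0 and 0.0386% on day 4 in D/KO cells. In WT cells these means were 0.0665% and 0.0385%. With VC they were 0.0419% and 0.0404% in D/KO, and 0.0506% and 0.0358% in WT cells. mt-Nd5 counts per mt-Rnr2 count went from a mean of 1.49 on day 0 to 6.02 on day 4 in D/KO, and from 2.52 to 8.29 in WT cells.

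**Figure D4:**
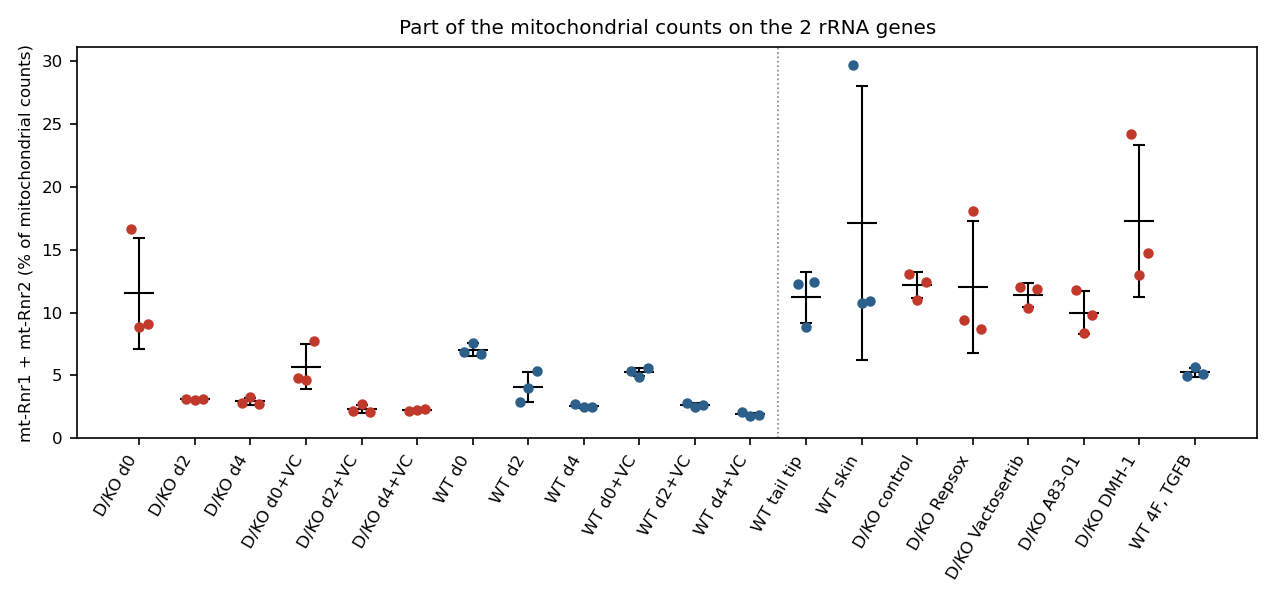
Counts on mt-Rnr1 and mt-Rnr2 as a percentage of all mitochondrial counts in each library (points; red, D/KO; blue, WT), with group mean and SD and the dotted line between the 2 tables. All doxycycline-treated libraries of the first table lie at or below 5.33%. So do some without doxycycline, among them D/KO day 0 plus VC replicates 1 and 2 (4.76% and 4.60%) and WT day 0 plus VC replicate 2 (4.90%). The highest values of the plot are those of WT skin replicate 1 (29.7%) and DMH-1 replicate 1 (24.2%).

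With VC alone, on day 0, 4 of 21 members were called higher in D/KO cells and 1 of 21 in WT cells (all genes called higher, 12.1% and 15.1%, and lower, 14% and 14.4%). The WT count was below the share of all genes, and the D/KO count was not far above it. The members called in D/KO cells were mt-Co1 (0.82, adjusted p = 0.0208), mt-Co2 (1.35, adjusted p = 0.000203), mt-Nd6 (0.90, adjusted p = 0.000979) and mt-Cytb (0.89, adjusted p = 0.0293). mt-Co1 had 1101, 2755 and 2438 CPM without and 3668, 5220 and 2191 with VC, so the groups overlapped. mt-Co1 and mt-Cytb lost their calls with total counts only (adjusted p = 0.0632 and 0.0759), with only the groups compared (adjusted p = 0.0624 and 0.0937) and without D/KO day 0 replicate 1 (0.51 and 0.50). The count was 2 without D/KO day 0 plus VC replicate 2 and 8 without replicate 3 of that group, and without a filter on low counts it was 10. In WT cells mt-Nd3, which is copied on chromosome 1, was called at 1.29 (adjusted p = 0.0443), a call lost when any of 5 of the 6 libraries was left out, with total counts only (adjusted p = 0.0983) and without a filter (adjusted p = 0.0524). The WT count was 7 without a filter and 10 with only the groups compared. With VC alone in D/KO cells mean summed endothelial markers went from 670 to 245 CPM and fibroblast markers from 86101 to 212364, and in WT cells fibroblast markers went from 47082 to 155452. Their part was not tested.

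On day 0 without VC, 7 members were lower in D/KO than in WT cells and none was higher (all genes, 21.1% lower and 22.1% higher): mt-Co1 (-0.66), mt-Co2 (-0.95), mt-Atp6 (-1.25), mt-Nd4l (-1.88), mt-Nd6 (-0.67) and the tRNA genes mt-Ty (-2.72) and mt-Te (-1.48). This count rested on 1 library, since without D/KO day 0 replicate 1 only 1 member was called, mt-Ty, and without WT day 0 replicate 1 there were 4. It was 11, all lower, with total counts only and 13, of which 1 was higher, without a filter. mt-Nd4l was not called with the copy's counts added (-1.01, adjusted p = 0.141), mt-Co1 not by DESeq2 (adjusted p = 0.0554) and mt-Te not with only the groups compared (adjusted p = 0.0781). mt-Nd6 had 142, 277 and 241 CPM in D/KO and 314, 348 and 391 in WT cells, without overlap. mt-Rnr1 (-0.14) and mt-Rnr2 (-0.02) were not called. Endothelial markers summed to 635 to 691 CPM in the D/KO group and to at most 1.54 in WT groups, and their part in these differences was not tested.

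In the second table the 3 ALK5 inhibitors were each compared with the same control D/KO libraries. The mitochondrial share was 0.909%, 0.695% and 0.511% in the controls, 1.205%, 1.130% and 1.455% with Repsox, 1.114%, 1.119% and 1.213% with Vactosertib, and 1.101%, 1.288% and 1.267% with A83-01. All 9 treated libraries lay above all 3 controls. Each comparison gave the smallest p that 3 against 3 libraries allow (exact permutation p = 0.1, adjusted p = 0.14). With DMH-1, which targets BMP receptors, the share was 0.392%, 0.768% and 0.660% and overlapped the controls (exact permutation p = 0.6, adjusted p = 0.646). Its difference of -0.0982 percentage points was 0.00899 without DMH-1 replicate 1.

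Of the 21 members, 6 were higher with Repsox (all genes, 11% higher and 9.73% lower), 2 with Vactosertib (9.37% and 8.7%), 2 with A83-01 (13.6% and 13.9%) and 0 with DMH-1 (4.35% and 2.9%; 1 at an unadjusted p under 0.05, and 0 by DESeq2), and none was lower. mt-Co1 was called with each of the first 3, at 0.77 ± 0.20 (adjusted p = 0.00916), 0.68 ± 0.20 (adjusted p = 0.0234) and 0.83 ± 0.20 (adjusted p = 0.00373). It had 3171, 2421 and 1911 CPM in the controls, 4250, 3395 and 5170 with Repsox, 3889, 3946 and 4177 with Vactosertib, and 4219, 4703 and 4443 with A83-01, all above the controls. With DMH-1 it had 1457, 2852 and 2317 CPM, and its change was -0.18 (adjusted p = 0.735). The counts of members called higher with Vactosertib and A83-01 were near or below the shares of all genes.

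mt-Cytb was called with Repsox (0.75, adjusted p = 0.0235) and A83-01 (0.67, adjusted p = 0.0338) and stood at 0.60 with Vactosertib (adjusted p = 0.0809). Repsox also gave calls for mt-Nd1 (0.73) and for the copied genes mt-Atp6 (1.11), mt-Co3 (0.94) and mt-Nd3 (1.75), and Vactosertib for mt-Co3 (0.91). With the copies' counts added, mt-Co3 was called with neither (adjusted p = 0.0903 and 0.445) and mt-Atp6 was not called with Repsox (adjusted p = 0.0522). In that setting mt-Nd3 kept its call with Repsox (1.36, adjusted p = 0.0463) and gained one with Vactosertib (1.42, adjusted p = 0.0417). The Repsox count was 0 without control replicate 3 and 3 without Repsox replicate 2, the library that stands apart. The Vactosertib count was 0 without control replicate 2, and the A83-01 count 1. With only the groups compared the counts were 1, 11 and 9 with Repsox, Vactosertib and A83-01, and mt-Co1 (adjusted p = 0.0651) and mt-Cytb (adjusted p = 0.0733) were not called with Repsox. The shares of all genes in that setting are not given here. The rRNA changes were above 0 with these 3 inhibitors (mt-Rnr1 0.79, 0.65 and 0.45) and none was called. They were not tested against the doxycycline changes. No test was made between the inhibitors, whose doses the labels do not give. Mean summed fibroblast markers were 74902 CPM in the controls and 38197, 43872 and 37194 with Repsox, Vactosertib and A83-01. Endothelial markers stood at 303 CPM in the controls and 242, 260 and 102 with these inhibitors, Schwann cell markers at 8.79 to 13 CPM and at means of 23.7, 20.8 and 40.7, and their part in the members' changes was not tested.

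Control D/KO and WT tail tip fibroblasts of the second table had shares of 0.705% ± 0.199 and 0.866% ± 0.0563 (SD, n = 3; exact permutation p = 0.3). Skin fibroblasts had 0.633% ± 0.0766, below every tail tip library (exact permutation p = 0.1, the smallest possible). mt-Tw, for tryptophan, was the sole member called in either comparison with TMM scaling of all groups, at -1.25 in both (adjusted p = 0.0439 and 0.0426; all genes, 16.6% and 16.1% lower, 17.9% and 18.1% higher), and these comparisons share the tail tip libraries. These calls were lost without a filter on low counts (adjusted p = 0.122 and 0.115) and when any of 5 and of 4 of the 6 libraries was left out, and without WT skin replicate 1 the skin comparison had 3 calls. It had 6, all lower, with total counts only and 2 by DESeq2, and the D/KO comparison had 2 with only the groups compared. Mean summed endothelial markers were 35.1 CPM in tail tip, 193 in skin and 303 in control D/KO cells, skeletal muscle markers 19.4, 135 and 31.6, and keratinocyte markers 12, 1.71 and 0.423, and their part was not tested. WT 4F cells labelled TGFB had 1.370%, 1.242% and 1.166%, above the tail tip libraries at 0.923%, 0.866% and 0.810% (exact permutation p = 0.1). Here 11 members were higher and none was lower (all genes, 28.6% higher and 33.6% lower), with mt-Nd5 at 1.56, mt-Nd2 at 1.17, mt-Nd6 at 0.92 and mt-Cytb at 0.84. The change of mt-Nd3 (1.84) was 0.10 with the copy's counts added. mt-Te, for glutamate, had 183, 94 and 109 counts against 21, 28 and 4, a log2 change of 3.08 ± 0.64 (adjusted p = 0.000292). Summed skeletal muscle markers stood at 1710 to 2062 CPM in these cells. Mean endothelial markers were 0.859 CPM against 35.1 in tail tip cells, keratinocyte markers 0.243 against 12, and fibroblast markers 62477 against 86477. The part of these markers was not tested. Line, age and treatment changed together in this comparison and cannot be told apart.

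The nuclear genes for the same complexes were counted beside the mitochondrial members. In WT cells on day 4 plus VC, where 5 members and 22.7% of all genes were higher and 22% of all genes were lower, 0 of 37 nuclear complex I subunits were higher and 20 lower (median -0.42), led by Ndufa3 (-1.43), Ndufa1 (-1.15) and Ndufs4 (-0.78). Of 15 nuclear complex IV subunits 0 were higher and 9 lower (median -0.55), among them Cox6a1 (-1.27) and Ndufa4 (-1.20). Of 16 ATP synthase subunits 0 were higher and 11 lower (median -0.46), of 9 complex III subunits 0 and 4, and of 4 complex II subunits, all nuclear, 0 and 3. On day 4 without VC, 11 complex I, 0 complex II, 3 complex III, 7 complex IV and 5 ATP synthase subunits were lower and 0 higher, beside 12.8% of all genes lower and 11.7% higher.

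In D/KO cells on day 4, 4 of 37 complex I subunits were higher and 0 lower, 1 complex II subunit was higher and 0 lower, 1 complex III subunit was higher and 1 lower, 1 complex IV subunit was higher and 2 lower, and 0 ATP synthase subunits were higher and 3 lower, beside 18.3% of all genes higher and 18.7% lower. On day 4 plus VC, where 27.9% of all genes were higher and 26.2% lower, 4 complex I subunits were higher and 7 lower, 1 complex II subunit was higher and 0 lower, 1 complex IV subunit was higher and 2 lower, 4 of 9 complex III subunits were higher and 0 lower, among them the iron-sulfur protein Uqcrfs1 (1.02), and 4 ATP synthase subunits were higher and 2 lower. Of 20 genes for mitochondrial RNA processing and decay, 16 were higher and 1 lower on day 4 plus VC (median 0.59), with the RNA granule protein Grsf1 at 0.96 and the tRNA 3' end nuclease Elac2 at 0.88, whereas Fastk (-1.04) was lower. In WT cells 7 of these 20 were higher and 2 lower at the same point (all genes, 22.7% and 22%). Of 77 mitochondrial ribosomal protein genes, 29 were higher and 5 lower in D/KO cells and 4 were higher and 23 lower in WT cells on day 4 plus VC. Of 10 genes for mitochondrial transcription 3 were higher in D/KO and 1 in WT cells on day 4 plus VC, shares near or below those of all genes (27.9% and 22.7%). The differences between D/KO and WT in these counts were not tested. Polrmt, the RNA polymerase, changed by 0.36 in D/KO and by 0.37 in WT cells, and Tfam, which packs the mitochondrial DNA and starts its transcription, was not called in any doxycycline arm (0.20 and -0.05 on day 4 plus VC).

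**Figure D5:**
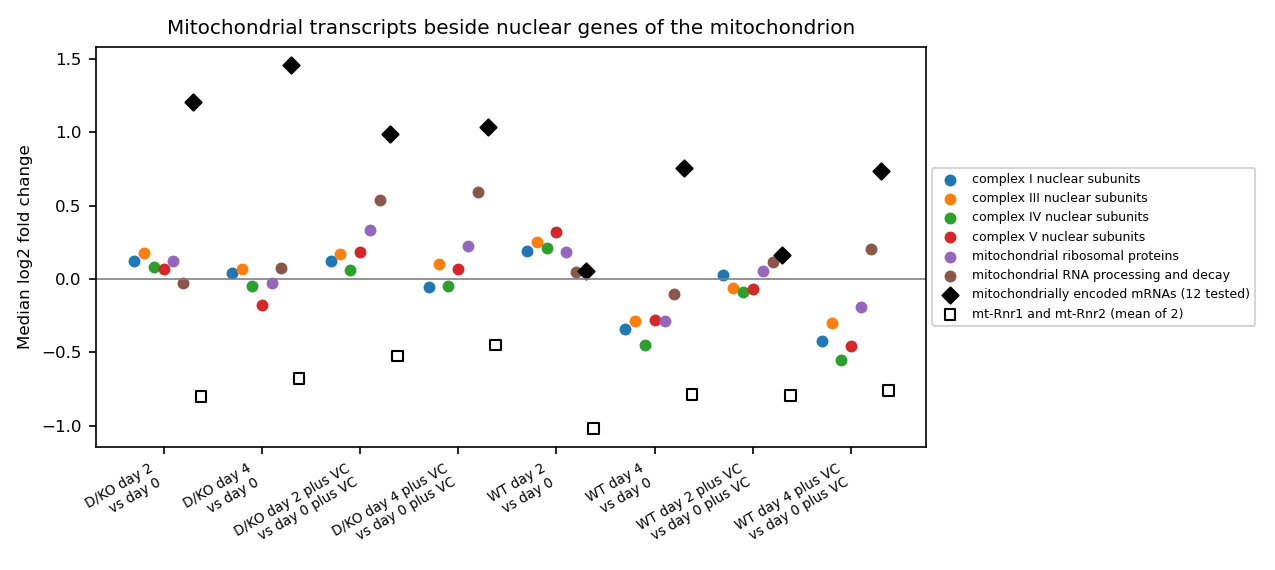
Median log2 change against day 0 of the mitochondrially encoded protein-coding genes and of lists of nuclear genes for mitochondrial complexes, ribosomes and RNA processing, by arm of the first table, with the mean of mt-Rnr1 and mt-Rnr2 as open squares. In WT cells on day 4 plus VC the mitochondrial median was 0.74 and those of nuclear complex I and IV subunits were -0.42 and -0.55.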

How the data were processed

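Poly(A) RNA of fibroblasts was sequenced in 60 libraries as paired reads of 150 bases. Per the submitters' processing notes the authors used Trim Galore, FastQC, HISAT2, featureCounts (Subread) and GRCm39, and deposited raw read counts per gene. Strand and multi-mapping settings, and versions, are not given in the sources used here. A read that fits MT and a nuclear copy can be lost or assigned to either place, which can lower the counts of the copied genes.

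Groups were taken from the sample labels. Each table was fitted alone in edgeR 4.0.16 (R 4.3.3) with TMM scaling, filterByExpr (minimum count 10, minimum total 15), 1 coefficient per group and the quasi-likelihood test, and p-values were adjusted by Benjamini and Hochberg over all 15832 or 15652 genes tested. A gene was called at an adjusted p under 0.05. CPM values use the TMM scaling. SE is the absolute log2 change divided by the square root of F. Shares of total counts were compared by exact permutation within days or conditions, and D/KO against WT by 100000 resamples. Nuclear copies (at least 300 bases at 95% identity) were found with BLAST 2.17.0 in GRCm39, and gene names and classes came from GENCODE M39. Alternatives were DESeq2 1.42.0, other scalings, no filter, only the groups compared, each library left out, and, chosen after the data were seen, counts of the chromosome 1 copies added to their members.

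All 37 members were accounted for: protein-coding genes and rRNAs by name, tRNAs by name where tested, the rest as counts, and of each nuclear list up to 3 genes with the smallest p. The members and lists were chosen with earlier results of these data known. The code was tested on simulated counts. The depth of 16538374 to 30599138 counts per library limits the precision of low members such as mt-Tw and mt-Nd4l.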

Additional observations from a re-analysis of the deposited data

Results flagged for a closer look

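The tRNA gene mt-Tw differed between genotypes in its change on day 4 plus VC, by a test of the difference itself. The D/KO change exceeded the WT change by 3.35 ± 1.30 (SE) on the log2 scale (edgeR, adjusted p = 0.0497). It had 2, 5 and 2 counts in D/KO cells on day 0 plus VC and 5, 9 and 10 on day 4 plus VC, against 6, 9 and 13 and then 3, 0 and 3 in WT cells. The call was lost when any of 9 of the 12 libraries was left out, with differences from 2.79 to 3.98, and without a filter on low counts (adjusted p = 0.0558). It remained by DESeq2 (adjusted p = 0.0296). The counts are few, and mt-Tw overlaps mt-Nd2 by 2 bases. It also lies wholly within 2 nuclear copies, the best of them with 0 differing bases.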

How the results depend on the processing

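No paired analysis was possible because the labels give no replicate numbers that groups share. Of 97 calls of members, 97 were kept with RLE size factors or with scaling from genes outside MT, 96 by DESeq2, 93 without a filter, 90 with copy counts added, 87 with total counts only, and 85 of 95 with only the groups compared. No sign changed in these. Scaling by total counts shifted the median of all genes by up to 0.377 (D/KO day 4 plus VC) and -0.290 (WT, VC alone). Causes were not tested.

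Called members moved by over 1.5 times as follows. The share of all genes called in each of these fits is not given here, and further members could enter the test when no filter was used. The counts are therefore not read as results about the members. Without a filter, 5 were called in WT on day 2, 12 on day 4, 6 on day 2 plus VC and 14 on day 4 plus VC, 10 and 7 with VC alone (D/KO, WT), 13 between D/KO and WT on day 0, 12, 9, 10 and 5 as differences of change (day 2, day 4, day 2 plus VC, day 4 plus VC) and 0 for skin. With only the groups compared, 15 were called in WT on day 4, 6 on day 2 plus VC, 14 on day 4 plus VC, 2 and 10 with VC alone, 2 as a difference of change on day 2 plus VC, 1 with Repsox, 11 with Vactosertib, 9 with A83-01, 2 for control D/KO against WT and 0 for skin. With total counts only, 2 and 0 were called with VC alone, 11 between D/KO and WT, 2, 1 and 1 as differences of change (day 2, day 4, day 2 plus VC), 5 with Vactosertib, 4 with A83-01, 0 for control D/KO and 6 for skin. DESeq2 called 7 in WT on day 4, 2, 1 and 2 as differences of change (day 2, day 2 plus VC, day 4 plus VC), 4 with Vactosertib and 2 for skin. RLE or scaling outside MT gave 1 difference of change on day 2 plus VC. Adding copy counts gave 1 on day 2 and 2 on day 4 plus VC. With 18 libraries, Vactosertib had 4.

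With 1 library left out, calls ranged from 6 to 13 and 11 to 14 in D/KO on days 2 and 4, 3 to 13 and 4 to 13 with VC, 2 to 2 and 1 to 4 in WT, 2 to 4 and 4 to 7 with VC, 2 to 8 and 0 to 1 for VC alone, 1 to 10 between D/KO and WT, 0 to 7, 0 to 1, 0 to 1 and 0 to 2 for differences of change, 0 to 7 with Repsox, 0 to 4 with Vactosertib, 1 to 4 with A83-01, 0 to 0 with DMH-1, 0 to 2 for control D/KO, 0 to 3 for skin and 9 to 10 for TGFB. The WT difference in share with VC ranged from 0.150 to 0.272 percentage points, and its exact permutation p was 0.0455, 0.0345 and 0.0348 without WT day 4 plus VC replicate 3, day 0 replicate 3 and day 2 replicate 1.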
